A study of Mus musculus with 110 samples.

Results

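The 32 genes described here encode the chaperones, folding enzymes, stress sensors, degradation factors and import channel of the endoplasmic reticulum (ER). They were taken by name from a set list and make up 32 of the 56884 gene identifiers in the count tables. The list holds 9 chaperones and co-chaperones, 4 protein disulfide isomerases, 2 lectin chaperones, 4 sensors and transcription factors, 9 genes of ER-associated degradation and 4 genes of the translocon. All 32 passed the filter on low counts in each tissue.

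RNA of 28 male wild-type C57BL/6N mice, single-housed and 16 weeks of age at the end, was sequenced from liver, interscapular brown fat (iBAT), inguinal white fat (iWAT) and epididymal white fat (eWAT). The control groups ate a diet with 0.86% methionine for 7 days and were kept at 22 °C (Ctrl_RT) or moved to 4 °C for 24 h (Ctrl_CE). The methionine-restricted groups ate a diet with 0.12% methionine for 7 days and were likewise kept at 22 °C (MetR_RT) or moved to 4 °C for 24 h (MetR_CE). Both diets lacked cysteine. Per the paper, the 24 h of cold followed the 7 days of diet, so cold cannot be told apart from the added day. The design asks how restriction and cold, alone and together, change each tissue. Each group had 7 mice, and the same mice gave the 4 tissues, which ties the tissues to each other in any comparison between them.

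Proteins of the secretory pathway enter the ER through the Sec61 channel, are folded by chaperones such as BiP (Hspa5), receive disulfide bonds from protein disulfide isomerases and, if glycosylated, pass through the calnexin and calreticulin cycle. Proteins that fail to fold are taken back to the cytosol by the Sel1l-Syvn1 ligase complex and its Derlin and Edem partners. When unfolded proteins build up, the sensors IRE1α (Ern1), PERK (Eif2ak3) and ATF6 set off the unfolded protein response: spliced Xbp1 and cleaved ATF6 raise transcription of chaperone and degradation genes, and PERK lowers translation. Liver carries a heavy secretory load of plasma proteins, and fat cells export adipokines and matrix. Gene-level counts do not separate spliced from unspliced Xbp1, nor cleaved ATF6 or phosphorylated PERK, so the activity of the sensors was not measured.

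Library totals were 6987895 to 33444374 counts in liver, 12672686 to 31232349 in iBAT, 16607493 to 33141066 in iWAT and 22021114 to 33372110 in eWAT. Of 110 libraries 105 were used, since 1 iBAT and 4 eWAT libraries were inferred to be those the study had left out. Groups then held 7 libraries, except for 6 in iBAT Ctrl_RT, iBAT Ctrl_CE, iWAT MetR_CE and eWAT MetR_RT and 4 in eWAT Ctrl_RT. For 3 iBAT libraries, each the first replicate of a group other than Ctrl_RT, the treatment tag names another group than the title does, and the title was followed. Levels are given as CPM, the count of a gene scaled to a common library total. Summed hepatocyte markers were at 51475 to 89105 CPM in liver, brown adipocyte markers at 9250 to 19589 in iBAT, and adipocyte markers at no less than 13716 in iWAT and 16465 in eWAT. Markers of B and plasma cells, which express many of the 32 genes strongly, summed to at most 48.5 CPM in any library used. In whole tissue, fewer cells of a type and less RNA per cell cannot be told apart, and this holds for every difference below.

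The promoters are shown first, because several genes with large changes below hold a known letter pattern there. RefSeq promoter windows (GRCm38.p6, 250 bases before to 50 after the transcription start) were at hand for 27 of the 32 genes, in 28 windows, and the other 5 (Atf6, Derl1, Hyou1, Manf and Sec61a1) had none. The ER stress response element, CCAAT and CCACG with 9 bases between them on either strand, was found exactly in the windows of 9 genes (Calr, Canx, Creld2, Derl3, Dnajc3, Hsp90b1, Hspa5, Pdia6 and Syvn1). It occurs in 39 of all 32851 windows, which is 0.119%. The related element ATTGG and CCACG with 1 base between them, in 0.0365% of all windows, was found in Herpud1 and, after the start site, in Dnajb11. The capitals below mark both parts of each element on the gene's own strand, where CGTGG and ATTGG are the reverse complements of CCACG and CCAAT.
Hspa5, chr2:34772005-34772063, plus strand: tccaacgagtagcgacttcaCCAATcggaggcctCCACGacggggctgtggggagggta
Calr, chr8:84847055-84847113, minus strand: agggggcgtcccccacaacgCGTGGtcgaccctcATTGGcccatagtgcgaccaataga
Creld2, chr15:88819500-88819558, plus strand: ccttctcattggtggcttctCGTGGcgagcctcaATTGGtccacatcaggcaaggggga
Derl3, chr10:75893222-75893280, plus strand: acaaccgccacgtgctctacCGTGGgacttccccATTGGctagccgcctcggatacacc
Pdia6, chr12:17266471-17266529, plus strand: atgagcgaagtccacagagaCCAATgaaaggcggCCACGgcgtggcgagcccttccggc
Hsp90b1, chr10:86705513-86705676, minus strand: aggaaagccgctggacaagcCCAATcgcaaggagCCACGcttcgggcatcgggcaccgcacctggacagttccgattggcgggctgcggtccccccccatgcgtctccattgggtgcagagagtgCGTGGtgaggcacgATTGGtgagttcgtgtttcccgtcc
Herpud1, chr8:94386357-94386407, plus strand: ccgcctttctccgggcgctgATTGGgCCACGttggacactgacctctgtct

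These stretches lie within 250 bases before the start, at -85 to -27 in Hspa5, -182 to -124 in Calr and -72 to -22 in Herpud1, and Hsp90b1 holds 2 copies. The CCACG part alone is common, with a match in 23 of the 27 genes and in 32.8% of all windows, and it overlaps the longer patterns. TGACGTG, another pattern bound by ATF6 and XBP1, was found in Hspa5 alone and in 2.01% of all windows. A match is only a match of letters and no measure of binding.

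In liver, 24 h of cold on the control diet lowered the folding machinery as a group (Ctrl_CE against Ctrl_RT). Of the 32 genes 19 fell and 1 rose at an adjusted p under 0.05, while 14.2% of all genes tested fell and 14.7% rose. The median log2 fold change of the 32 genes was -0.37, against -0.01 over all genes. The losses took in 8 of 9 chaperones and co-chaperones, 3 of 4 disulfide isomerases, both lectin chaperones, 4 of 9 degradation genes, 1 of 4 translocon genes and, of the sensors, Xbp1. Atf6 was the 1 gene that rose.

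**Figure D1:**
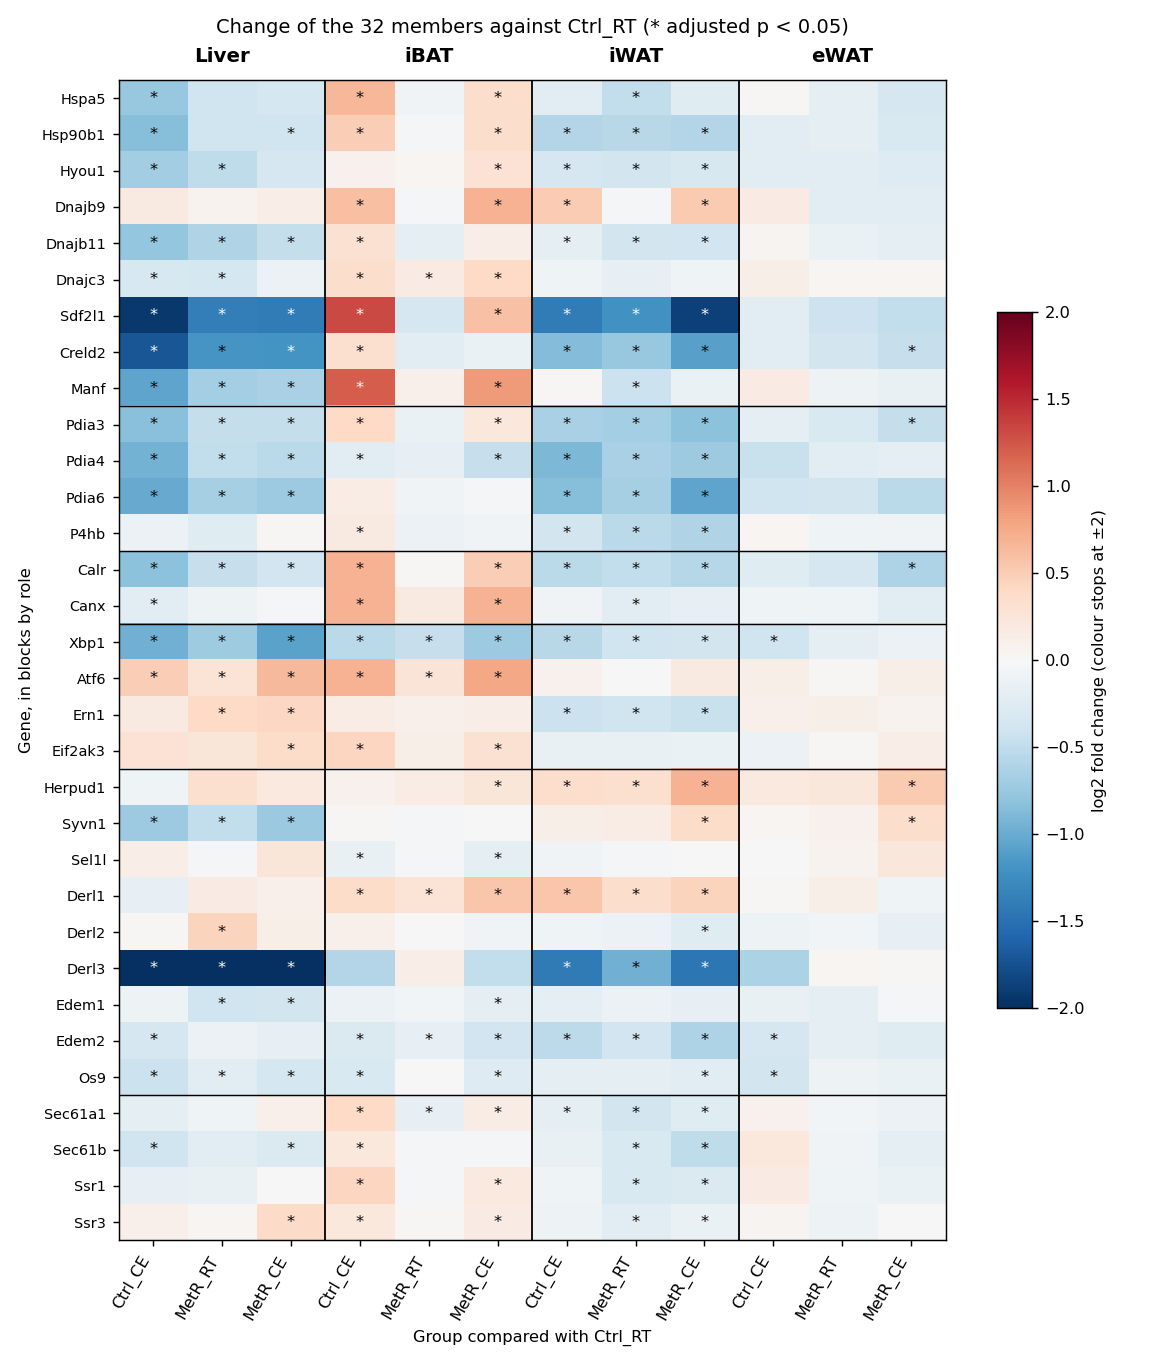
Colours give the log2 fold change of each of the 32 genes (rows, in blocks by role) against Ctrl_RT in the 3 other groups of each tissue (columns), and stars mark an adjusted p under 0.05. The liver and iWAT columns are mostly blue in the upper blocks, the cold iBAT columns are mostly red there (Manf +1.22, Sdf2l1 +1.33), and Xbp1 is blue in all 4 tissues in the cold on the control diet.

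Hspa5, the main Hsp70 chaperone of the ER, was at 941, 1592 and 1966 CPM (lowest, median and highest of 7 livers) in Ctrl_RT and at 635, 902 and 1200 CPM in Ctrl_CE. The groups overlapped, with 4 of the 7 cold livers below every Ctrl_RT liver, and the log2 fold change was -0.76 ± 0.16 (SE, adjusted p = 0.000558). Sdf2l1, a partner of ER J-domain proteins, stood at 68.3, 93.5 and 200.7 CPM in Ctrl_RT and at 11.3, 29.7 and 48.6 CPM in Ctrl_CE. All 7 cold livers lay below all 7 Ctrl_RT livers, a change of -1.93 ± 0.29 (adjusted p = 7.33e-06).

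Derl3, a Derlin found mainly in secretory cells, had the largest change of the list in liver. It was at 4.56, 9.20 and 53.7 CPM in Ctrl_RT and at 0.237, 0.559 and 2.63 CPM in Ctrl_CE, with raw counts of 4 to 832 over all livers. The groups did not overlap, and the log2 fold change was -4.08 ± 0.61 (adjusted p = 7e-06). The highest Ctrl_RT liver, replicate 7, also had the highest summed level of the 32 genes in its group, 17565 CPM against a median of 12685. Without it the change of Derl3 was -3.33 and 18 of the 32 genes still passed the test, Canx and Dnajc3 no longer doing so. Over all genes 6090 of 22013 passed without it.

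Creld2, an ER-stress-inducible secreted protein, fell by 1.72 ± 0.29, and Manf, a secreted ER factor that binds BiP, fell by 1.05 ± 0.18 (both log2 ± SE). The disulfide isomerases Pdia6, Pdia4 and Pdia3 changed by -1.01, -0.94 and -0.84, while P4hb, the subunit shared with collagen prolyl hydroxylase, was at -0.11 and did not pass. Calreticulin (Calr) was at 1501, 1572 and 2399 CPM in Ctrl_RT and at 617.5, 934 and 1236 CPM in Ctrl_CE, a change of -0.83 ± 0.13 with no overlap between the groups. Dnajb11, a J-domain co-chaperone of BiP, was at 169, 193 and 280.1 CPM in Ctrl_RT against 82.6, 113 and 147 CPM, which is -0.77 ± 0.13 and again without overlap.

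Among the sensors, Xbp1 and Atf6 moved apart. Xbp1, the transcription factor whose messenger RNA is cut by IRE1α, was at 299, 478 and 662 CPM in Ctrl_RT and at 161, 241 and 349 CPM in Ctrl_CE. All but 1 of the cold livers lay below every Ctrl_RT liver (-0.96 ± 0.15, adjusted p = 9.83e-06). Atf6 rose by 0.49 ± 0.08 with no overlap, from a median of 66.9 to 93.6 CPM, and Ern1 and Eif2ak3 were at +0.18 and +0.28 without passing. In the degradation block the ligase Syvn1 fell by 0.73 ± 0.14, Os9, a lectin that hands glycoproteins to it, fell by 0.42 ± 0.05 and Edem2 fell by 0.34 ± 0.09, whereas Sel1l, Derl1, Derl2, Edem1 and Herpud1 did not pass, at -0.16 to +0.13.

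Methionine restriction at 22 °C also lowered many of the genes in liver (MetR_RT against Ctrl_RT, which shares its control livers with the cold comparison). Here 15 genes fell and 3 rose, beside 8.7% and 10.1% of all genes, and the median of the 32 was -0.30 against 0.00 over all genes. The changes were Derl3 -2.06 ± 0.52, Sdf2l1 -1.38 ± 0.28, Creld2 -1.18 ± 0.28, Xbp1 -0.71 ± 0.15, Manf -0.69 ± 0.18, Pdia6 -0.66 ± 0.14, Dnajb11 -0.61 ± 0.13 and Calr -0.46 ± 0.13. Hspa5 (710, 1124 and 1718 CPM in MetR_RT) and Hsp90b1, its Hsp90 counterpart, were both at -0.39 and did not pass, with adjusted p of 0.0899 and 0.0611.

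For Derl3 the restricted livers were at 0.855, 2.47 and 11.6 CPM, 5 of 7 below every control liver, and for Sdf2l1 at 22.1, 33.7 and 83.6 CPM, 6 of 7 below. Without Ctrl_RT replicate 7 the change of Derl3 shrank to -1.32 (adjusted p = 0.0433), and 15 of the 32 genes passed, without Dnajc3, Hyou1 and Pdia4. Over all genes 3914 of 22013 passed without this library. The 3 genes that rose on the restricted diet were Derl2 (+0.44 ± 0.08), Ern1 (+0.40 ± 0.09) and Atf6 (+0.28 ± 0.08). Edem1, a mannosidase-like degradation factor, fell by 0.39 ± 0.08 on the diet and was at -0.10 in the cold.

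In the livers with both treatments (MetR_CE against Ctrl_RT), 15 genes fell and 4 rose, where 15.2% of all genes fell and 15.2% rose. The 4 that rose were Atf6 (+0.65 ± 0.08), Ern1 (+0.42 ± 0.09), the translocon-associated Ssr3 (+0.38 ± 0.09) and Eif2ak3 (+0.37 ± 0.14). Xbp1 (188, 232 and 256.6 CPM in MetR_CE) lay below all Ctrl_RT livers at -1.07 ± 0.15. Hspa5 was at 898, 1242 and 1491 CPM, which overlaps Ctrl_RT, and at -0.35 ± 0.16 it did not pass (adjusted p = 0.101). Without Ctrl_RT replicate 7 the count was 16 genes, with Calr, Eif2ak3, Hsp90b1 and Sec61b lost and Sel1l gained. Over all genes it was 6454 of 22013.

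For part of the list, the cold response of liver differed between the diets. On the restricted diet (MetR_CE against MetR_RT) Atf6, Ssr3 and P4hb rose and Derl2 fell, which is 4 of 32 genes beside 18% of all genes, and the median change was +0.02. The difference between the cold effects on the 2 diets, tested as an interaction, passed for 11 of the 32 genes and for 1.76% of all genes. DESeq2 called 17 of the 32, and 880 of 22143 genes in all. All 11 were positive: Dnajb11 (+0.90 ± 0.18, adjusted p = 0.00908), Calr (+0.89 ± 0.18), Pdia3 (+0.83 ± 0.17), Pdia4 (+0.90 ± 0.20), Pdia6 (+0.94 ± 0.20), Hsp90b1 (+0.84 ± 0.21), Manf (+1.08 ± 0.25), Creld2 (+1.69 ± 0.40), Sdf2l1 (+1.91 ± 0.40), Derl3 (+3.20 ± 0.85) and Os9 (+0.30 ± 0.08). A positive value means that the fall in the cold was smaller under restriction.

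For Calr the restricted livers were at 944, 1205 and 1522 CPM at 22 °C and at 1028, 1309 and 1388 CPM in the cold, and for Dnajb11 at 99.2, 128 and 173 CPM and at 113, 148 and 162 CPM. In both genes the restricted livers overlapped between the temperatures, while the control livers did not. Sdf2l1 in MetR_CE was at 22.0, 42.9 and 59.2 CPM and Derl3 at 0.773, 2.06 and 5.55 CPM. Hspa5 had an interaction of +0.81 ± 0.23 that missed the threshold (adjusted p = 0.0616), and Xbp1 one of +0.59 ± 0.21 (adjusted p = 0.133). Without Ctrl_RT replicate 7 the interaction passed for 9 genes, Derl3 (+2.45, adjusted p = 0.0780) and Os9 no longer doing so. Over all genes it then passed for 299 of 22013. In the cold, restricted against control livers (MetR_CE against Ctrl_CE) gave higher Calr (+0.44), Hsp90b1 (+0.45), Sec61a1 (+0.30) and Ssr3 (+0.28) and lower Edem1 (-0.26), so 5 genes passed beside 12.1% of all genes.

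**Figure D2:**
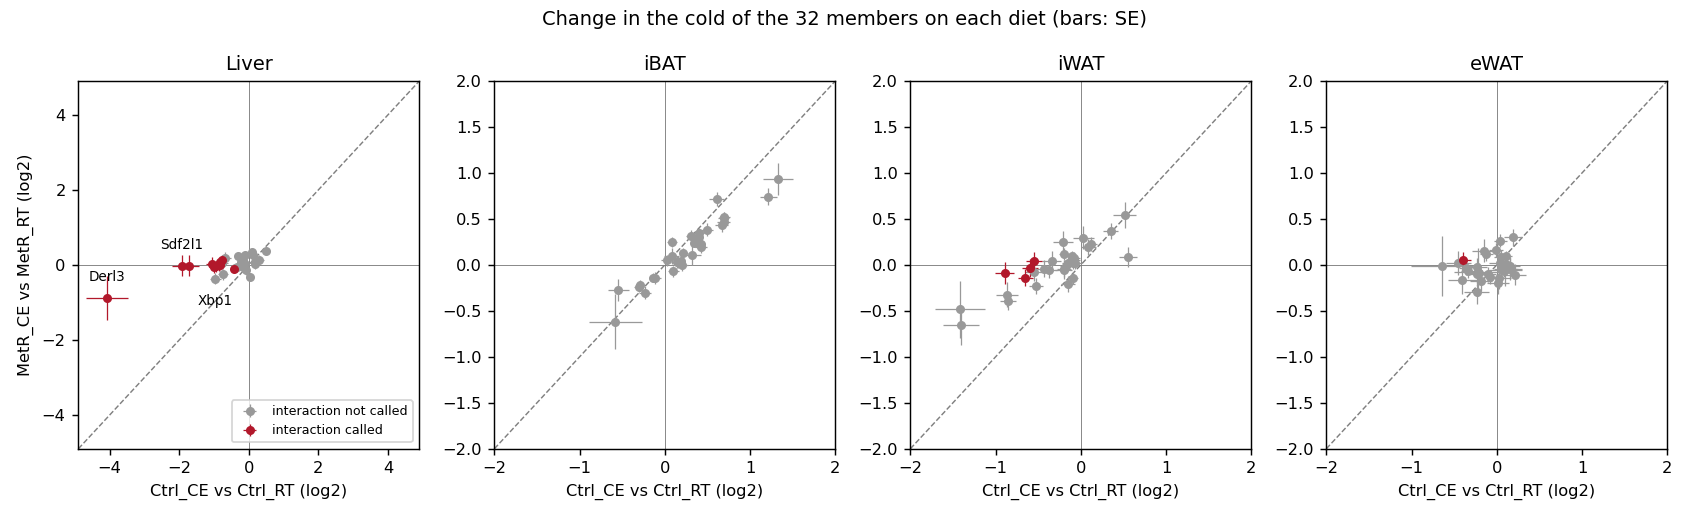
Each point is 1 of the 32 genes, with its log2 change in the cold on the control diet (x axis) and on the restricted diet (y axis) in each tissue, bars being standard errors; the liver panel has wider axes. In liver the red points, genes with a called interaction, spread along the x axis and stay near 0 on the y axis (Sdf2l1 at -1.93 and -0.02), whereas in iBAT the points follow the dashed line of equal change.

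Other cell markers moved with these liver groups. Summed endothelial markers were at 71.4 to 97.9 CPM in Ctrl_RT, 125 to 214 in Ctrl_CE, 99.3 to 122 in MetR_RT and 169 to 195 in MetR_CE, and all 6 of these genes rose in the cold. Of 7 macrophage markers 5 rose in the cold (197 to 275.01 CPM in Ctrl_RT, 196 to 692 in Ctrl_CE) and 4 fell on the restricted diet (119 to 196 CPM). Hepatocyte markers summed to 57645 to 89105 CPM in Ctrl_RT and 56306 to 78408 in Ctrl_CE. The part of the other cell types in the liver values was not tested.

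In iBAT most of the list rose in the cold. On the control diet 19 of the 32 genes rose and 5 fell, beside 15.3% and 17.9% of all genes, and the median change was +0.26 against -0.08 over all genes. The gains covered 8 of 9 chaperones and co-chaperones, both lectin chaperones and all 4 translocon genes, with 2 of 4 disulfide isomerases (Pdia3 and P4hb), the sensors Atf6 and Eif2ak3 and, of 9 degradation genes, Derl1. Those that fell were Xbp1, Os9, Edem2, Pdia4 and Sel1l.

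Hspa5 was at 240.0, 263.8 and 353 CPM in Ctrl_RT (n = 6) and at 417, 439 and 463 CPM in Ctrl_CE (n = 6). The groups did not overlap, and the log2 fold change was +0.67 ± 0.08 (adjusted p = 3.58e-08). Sdf2l1 was at 2.38, 2.84 and 5.17 CPM against 6.93, 8.01 and 9.06 CPM in the cold, and Manf at 31.4, 32.2 and 49.8 CPM against 76.2, 82.8 and 84.5 CPM. Neither gene overlapped between the groups, with changes of +1.33 ± 0.17 and +1.22 ± 0.10. The highest Ctrl_RT values of Sdf2l1 and Manf, and the highest sum of the 32 genes in that group (3393 CPM against a median of 2869), came from replicate 1.

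**Figure D3:**
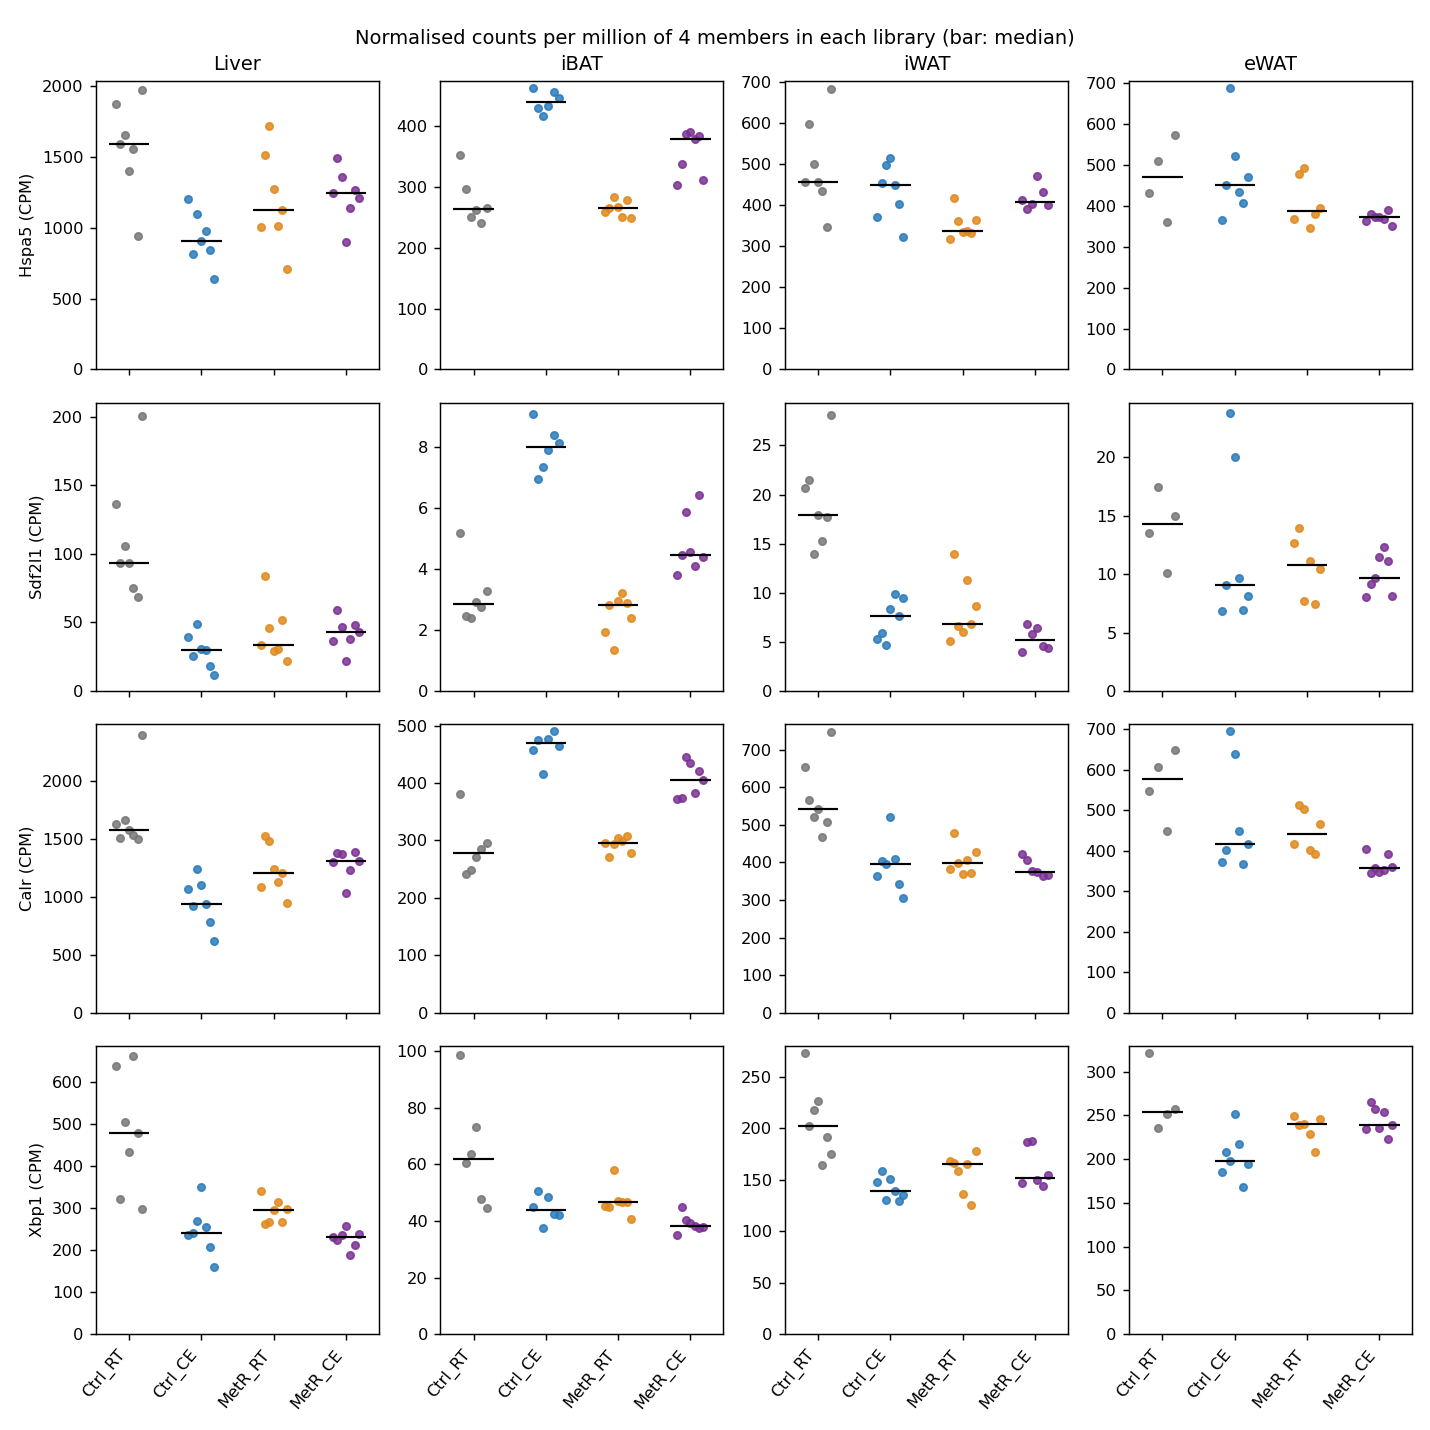
Points are libraries and bars medians of normalised CPM for Hspa5, Sdf2l1, Calr and Xbp1 (rows) in each tissue (columns) and group (x axis), each panel with its own y axis from 0. The Ctrl_CE livers of Sdf2l1 lie at 11.3 to 48.6 CPM, below all Ctrl_RT livers, and the Ctrl_CE points of Hspa5 in iBAT lie at 417 to 463 CPM, above all Ctrl_RT points.

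Calnexin (Canx) rose by 0.70 ± 0.06, Calr by 0.69 ± 0.08, Atf6 by 0.69 ± 0.06 and the co-chaperone Dnajb9 by 0.61 ± 0.09. The translocon genes rose by 0.21 to 0.43, led by Ssr1 (+0.43 ± 0.05), a subunit of the complex that assists the channel, and Sec61a1 (+0.40 ± 0.04), the channel itself. Ssr1 was at 52.7, 56.1 and 58.9 CPM in Ctrl_RT and at 65.9, 75.9 and 80.3 CPM in Ctrl_CE, with no overlap. Xbp1 went down in this tissue too, from 44.7, 62.1 and 98.8 CPM to 37.5, 43.8 and 50.7 CPM (-0.54 ± 0.12, adjusted p = 0.000926), and 3 of the 6 cold libraries lay below every Ctrl_RT library. Edem2 fell by 0.29 ± 0.05, Os9 by 0.30 ± 0.06, Pdia4 by 0.23 ± 0.07 and Sel1l by 0.14 ± 0.05, all smaller than 1.5-fold.

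Restriction at 22 °C called 6 of the 32 genes in iBAT, with 3 rising and 3 falling beside 2.9% and 3.9% of all genes. Derl1, a Derlin of the degradation channel, was at 335, 356 and 375 CPM in Ctrl_RT and at 400.3, 422 and 465 CPM in MetR_RT. All 7 restricted libraries lay above all 6 control libraries (+0.27 ± 0.06, adjusted p = 0.00659). Xbp1 was at 40.7, 46.6 and 58.2 CPM in MetR_RT, and at -0.46 ± 0.12 it passed (adjusted p = 0.0176) although the groups overlapped. Atf6 (+0.25) and the co-chaperone Dnajc3 (+0.16) rose, and Edem2 (-0.17) and Sec61a1 (-0.16) fell. Hspa5 (248.4, 265.2 and 283.8 CPM in MetR_RT) was at -0.07 with an adjusted p of 0.635. Without Ctrl_RT replicate 1, Xbp1 and Edem2 no longer passed and Canx did.

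Cold on the restricted diet (MetR_CE against MetR_RT) shares no library with cold on the control diet, and 15 genes rose and 4 fell in both. The share of all genes called in both was not counted. In liver the same comparisons had 1 gene that rose in both and 0 that fell in both, and in iWAT 2 and 1. The comparisons for restriction at 22 °C and in the cold share no library either. There 0 genes rose and 1 fell in both in liver, and 1 went opposite ways. In iWAT these counts were 1, 1 and 0. Most falls called against Ctrl_RT in liver and iWAT were therefore not called in the comparison without these libraries. In iBAT 20 genes in all passed on the restricted diet, beside 25.5% of all genes. Of the 32 genes 31 had the same sign on both diets, and the share of all genes that did was not counted. With groups set by the tag 12 genes passed (3126 of 23915 genes in all), Hspa5, Hsp90b1, Pdia3, Dnajb11, Sdf2l1, Eif2ak3, Sel1l and Ssr1 being lost. Without the 3 libraries whose tag differs 18 did (5293 of 23486 genes in all). Hspa5 in MetR_CE was at 304, 378 and 390.3 CPM (+0.43 ± 0.07), Manf at 51.3, 63.3 and 77.5 CPM (+0.74 ± 0.09) and Sdf2l1 at 3.79, 4.45 and 6.43 CPM (+0.93 ± 0.17). All 3 lay above every MetR_RT library, where Manf was at 34.9, 38.3 and 42.6 CPM and Sdf2l1 at 1.34, 2.83 and 3.22 CPM. Against Ctrl_RT the doubly treated iBAT had 17 genes up and 6 down, beside 15% and 18.5% of all genes, led by Manf (+0.85), Atf6 (+0.77), Canx (+0.70) and Dnajb9 (+0.69).

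The cold level itself was lower under restriction for part of the list. In MetR_CE against Ctrl_CE 8 genes fell and 1 rose, or 9 of 32 beside 4.78% of all genes: Sdf2l1 -0.73, Creld2 -0.44, Manf -0.37, Hspa5 -0.31, Sec61a1 -0.25, P4hb -0.25, Sec61b -0.24 and Ssr1 -0.23, with Hyou1, a large Hsp70-related chaperone, at +0.20. For Hspa5 and Sdf2l1 all 7 MetR_CE libraries lay below all 6 Ctrl_CE libraries. This comparison leans on how the libraries with conflicting tags were placed: 4 of the 9 genes passed without those 3 libraries (Sdf2l1, Sec61a1, P4hb and Ssr1) and 0 passed with groups set by the tag. Over all genes the calls were 1143 of 23915 as placed here, 850 of 23486 without the 3 libraries and 5 of 23915 by the tag. Cold on the control diet gave 23 and 22 genes under these placements, and 7190 of 23486 and 7043 of 23915 genes in all. Without Ctrl_RT replicate 1, which is in neither of these groups, 14 genes passed, and 1250 of 23706 genes in all. The cause was not tested.

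The interaction of diet and cold passed for 0 of 32 genes in iBAT by edgeR, beside 0.903% of all genes. The unadjusted p was under 0.05 for 8 genes, and for 2964 of 23915 genes in all. DESeq2 called 2 of the 32, and 724 of 23915 genes in all. The nearest were Manf (-0.47 ± 0.13, adjusted p = 0.0857) and Ssr1 (-0.20 ± 0.06, adjusted p = 0.122). Without Ctrl_RT replicate 1, whose Manf was the highest of its group, Manf (-0.60, adjusted p = 0.00507) and Calr passed. Ssr1 was at 52.2, 53.9 and 56.7 CPM in MetR_RT and at 59.8, 64.3 and 67.1 CPM in MetR_CE, without overlap.

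Brown adipocyte markers summed to 9250 to 12159 CPM in Ctrl_RT and 15749 to 18791 in Ctrl_CE, although only 2 of the 6 rose by test and 1 fell. Fibroblast markers were at 462 to 1206 CPM in Ctrl_RT, 212 to 632 in Ctrl_CE and 214 to 358 in MetR_RT, with 3 of 6 falling in the cold and 5 of 6 on the restricted diet. Their part in the iBAT values was not tested.

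In iWAT both treatments lowered many of the genes. Cold on the control diet gave 15 falls and 3 rises, beside 16.2% and 14.6% of all genes, with a median of -0.20 against -0.11 over all genes. Restriction gave 21 falls and 2 rises, beside 11.5% and 11% of all genes, with a median of -0.36 against -0.03. All 4 disulfide isomerases fell in both comparisons, which share their control libraries. All 4 translocon genes fell on the restricted diet and 1 of them, Sec61a1, in the cold.

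Sdf2l1 was at 13.9, 17.97 and 28.1 CPM in Ctrl_RT, 4.70, 7.64 and 9.83 CPM in Ctrl_CE and 5.10, 6.79 and 13.9 CPM in MetR_RT. Neither treated group overlapped Ctrl_RT, although the highest restricted and the lowest control library were both at 13.9 CPM, and the changes were -1.40 ± 0.21 and -1.21 ± 0.21 (adjusted p = 1.91e-05 and 0.000185). Pdia4, a disulfide isomerase, was at 108, 133 and 188 CPM in Ctrl_RT, 61.7, 74.4 and 93.0 CPM in Ctrl_CE and 64.5, 91.9 and 109 CPM in MetR_RT. Only the cold group was fully below Ctrl_RT, with -0.89 ± 0.12 against -0.64 ± 0.11 on the restricted diet.

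Creld2 was at 22.8, 26.05 and 41.96 CPM in Ctrl_RT, 13.8, 14.1 and 19.96 CPM in Ctrl_CE and 13.9, 16.7 and 22.1 CPM in MetR_RT. It separated the groups in both comparisons, at -0.86 ± 0.13 and -0.76 ± 0.13. Hspa5 differed from these: at 347, 457 and 683 CPM in Ctrl_RT it was at 321, 447 and 513 CPM in the cold (-0.21 ± 0.12, adjusted p = 0.181) and at 318, 336 and 418 CPM on the restricted diet (-0.50 ± 0.12, adjusted p = 0.00234). Only restriction passed for Hspa5, and a difference between the 2 effects was not tested.

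Pdia6 (-0.85 and -0.66), Pdia3 (-0.65 and -0.68), Hsp90b1 (-0.59 and -0.55), Calr (-0.55 and -0.50) and P4hb (-0.37 and -0.54) fell in the cold and under restriction alike. Ern1 fell by 0.43 and 0.40, whereas in liver it rose under restriction. Exceptions ran the other way: Derl1 rose by 0.55 ± 0.10 in the cold and 0.35 ± 0.10 under restriction, Herpud1, a stress-induced scaffold of the degradation complex, by 0.35 ± 0.09 and 0.33 ± 0.09, and Dnajb9 by 0.51 ± 0.13 in the cold only by test (-0.03 under restriction). Derl3 also passed, at -1.41 and -0.96, but its raw counts were 2 to 37 in this tissue.

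Xbp1 in iWAT was at 164, 203 and 272.8 CPM in Ctrl_RT, 129.6, 139 and 159 CPM in Ctrl_CE and 126, 165 and 178 CPM in MetR_RT. The cold group lay fully below the controls (-0.55 ± 0.10, adjusted p = 0.000128), and the restricted group overlapped them (-0.40 ± 0.10, adjusted p = 0.00353). With both treatments Xbp1 was at 144, 152 and 188 CPM and Pdia4 at 76.9, 85.9 and 97.2 CPM.

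In doubly treated iWAT (MetR_CE, n = 6, against Ctrl_RT) 20 genes fell and 4 rose, beside 19.9% and 17.2% of all genes, from Sdf2l1 at -1.86 ± 0.23 (3.93, 5.19 and 6.78 CPM) to Herpud1 at +0.69 ± 0.09. Creld2 was at 11.1, 13.6 and 15.6 CPM there (-1.08) and Hspa5 at 391, 406 and 469.5 CPM (-0.25, adjusted p = 0.109). Adding cold to restriction (MetR_CE against MetR_RT) changed 3 genes beside 5.41% of all genes: Dnajb9 (+0.54) and Herpud1 (+0.37) rose and Pdia6 (-0.40) fell. Adding restriction to cold (MetR_CE against Ctrl_CE) changed 2 genes beside 3.37% of all genes, Herpud1 (+0.35) and Sec61b (-0.37).

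The interaction in iWAT passed for 4 genes, all positive, beside 2.95% of all genes: Pdia4 (+0.81 ± 0.16, adjusted p = 0.0127), Xbp1 (+0.59 ± 0.14), Hsp90b1 (+0.56 ± 0.13) and Pdia3 (+0.51 ± 0.13). A positive value here means that the combined fall was smaller than the sum of the single falls. DESeq2 called 10 genes for it, and 2047 of 26428 genes in all, where edgeR called 780. Without MetR_RT replicate 6 Pdia3 no longer passed, and 455 of 26312 genes did in all.

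Cell markers shifted strongly between these iWAT groups. Summed fibroblast markers were at 9041 to 30632 CPM in Ctrl_RT, 1283 to 13957 in Ctrl_CE, 2407 to 8287 in MetR_RT and 1327 to 2112 in MetR_CE. All 7 macrophage markers fell in the cold and under restriction (1690 to 2838 CPM in Ctrl_RT, 358 to 1941 and 304 to 1314), and all 6 brown adipocyte markers rose (94.1 to 934 CPM in Ctrl_RT, 908 to 6017 and 513 to 5403). Muscle markers reached 18935 CPM in MetR_RT replicate 6, and without this library 24 genes passed for restriction, beside 5247 of 26312 genes in all. Whether these cells carry the iWAT changes was not tested.

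In eWAT fewer of the genes passed against Ctrl_RT than in any other tissue. Cold on the control diet gave 0 rises and 3 falls, beside 2.11% and 3.16% of all genes, with a median of -0.04 against -0.01. Os9 was at 252.8, 250.2, 251.1 and 255.9 CPM in the 4 Ctrl_RT libraries and at 175, 198 and 211 CPM in the 7 of Ctrl_CE. The groups did not overlap (-0.36 ± 0.08, adjusted p = 0.00787). Xbp1 was at 322, 235, 251.7 and 256.99 CPM in Ctrl_RT and at 168, 198 and 252.1 CPM in Ctrl_CE, 6 of 7 below every control (-0.39 ± 0.09, adjusted p = 0.0150), and Edem2 fell by 0.34 ± 0.08. These calls depend on the libraries used. With all eWAT libraries kept, Os9 (-0.23, adjusted p = 0.0880) and Xbp1 (-0.20, adjusted p = 0.255) no longer passed, Edem2 did, and Creld2, Derl3 and Hyou1 were added, while the median over all genes was -0.21. Without Ctrl_RT replicate 1 Xbp1 was lost, without replicate 7 Edem2, and with only the groups compared in the fit Os9 alone passed.

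Hspa5 in eWAT was at 431, 511, 360.0 and 573 CPM in Ctrl_RT and 364, 451 and 688 CPM in Ctrl_CE (+0.02 ± 0.14). Restriction called 0 of the 32 genes by edgeR, in a comparison where 0.036% of all genes rose and 0.112% fell. The unadjusted p was under 0.05 for 5 genes and DESeq2 called 0. Creld2 had the smallest p, at 23.4, 26.1, 26.9 and 28.7 CPM in Ctrl_RT and 18.04, 20.4 and 22.3 CPM in MetR_RT (n = 6), without overlap (-0.37 ± 0.12, adjusted p = 0.276). In MetR_RT Hspa5 was at 346, 387 and 493.4 CPM, Xbp1 at 208.5, 239.7 and 249.7 CPM and Os9 at 212, 226 and 282.6 CPM, each overlapping Ctrl_RT.

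With both treatments (MetR_CE against Ctrl_RT) 2 genes rose and 3 fell, beside 1.48% and 1.22% of all genes. Herpud1 rose by 0.53 ± 0.10 and Syvn1 by 0.36 ± 0.08, and Calr (-0.62 ± 0.15), Pdia3 (-0.48 ± 0.13) and Creld2 (-0.46 ± 0.12) fell. Leaving out Ctrl_RT replicate 1, 3 or 7 removed the 3 falls, and with all libraries kept 12 genes passed, where 4321 of 31464 genes were called in place of 749 of 27786. MetR_CE against MetR_RT called 0 genes by edgeR (0.223% of all genes), 4 at an unadjusted p under 0.05 and 1 by DESeq2. Over all genes 3626 of 27786 were at that unadjusted p, and DESeq2 called 555.

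Restricted against control mice in the cold (MetR_CE against Ctrl_CE) differed in 10 genes, beside 11.5% of all genes, and in 3 with all libraries kept, where 1433 of 31464 genes were called in place of 3187 of 27786. Syvn1 (+0.31), Herpud1 (+0.33), Xbp1 (+0.27), Eif2ak3 (+0.26), Sel1l (+0.24) and Os9 (+0.23) were higher and Dnajb9 (-0.39), Sec61b (-0.39), Ssr1 (-0.29) and Dnajb11 (-0.23) lower. In MetR_CE Xbp1 was at 223, 239 and 265.9 CPM, Os9 at 207, 229 and 261.3 CPM, Hspa5 at 351, 372 and 390.0 CPM and Creld2 at 16.99, 18.2 and 23.8 CPM.

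The eWAT interaction passed for Xbp1 only (+0.45 ± 0.12, adjusted p = 0.0491), beside 3.07% of all genes, and not for Os9 (+0.33, adjusted p = 0.0842). It was lost when Ctrl_RT replicate 1, 6 or 7 was left out, with all libraries kept, and without MetR_RT replicate 2. That library had the highest epididymal epithelium markers of those used, at 1276 CPM, and the Ctrl_RT replicate 2 that was not used had 8136 CPM of them and 8269 CPM of the 32 genes. Hepatocyte markers summed to 3362 to 6706 CPM in eWAT Ctrl_RT, 254.1 to 3924 in Ctrl_CE, 460 to 2018 in MetR_RT and 498 to 1206 in MetR_CE. By test, 0 of these 6 markers rose and 1 fell in the cold, at a median log2 fold change of +2.53. Under restriction 0 rose and 0 fell (median +1.45), so the sums do not describe the markers as a set. Fibroblast markers were at 3036 to 4573 CPM in Ctrl_RT, 1969 to 4315 in Ctrl_CE, 2035 to 2801 in MetR_RT and 1115 to 2206 in MetR_CE, and muscle markers at 20.01 to 424 CPM in Ctrl_RT and 6.08 to 11.6 in MetR_CE. Of the 6 fibroblast markers 0 rose and 0 fell by test in the cold or under restriction. The part of these cell types in the eWAT values was not tested.

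**Figure D4:**
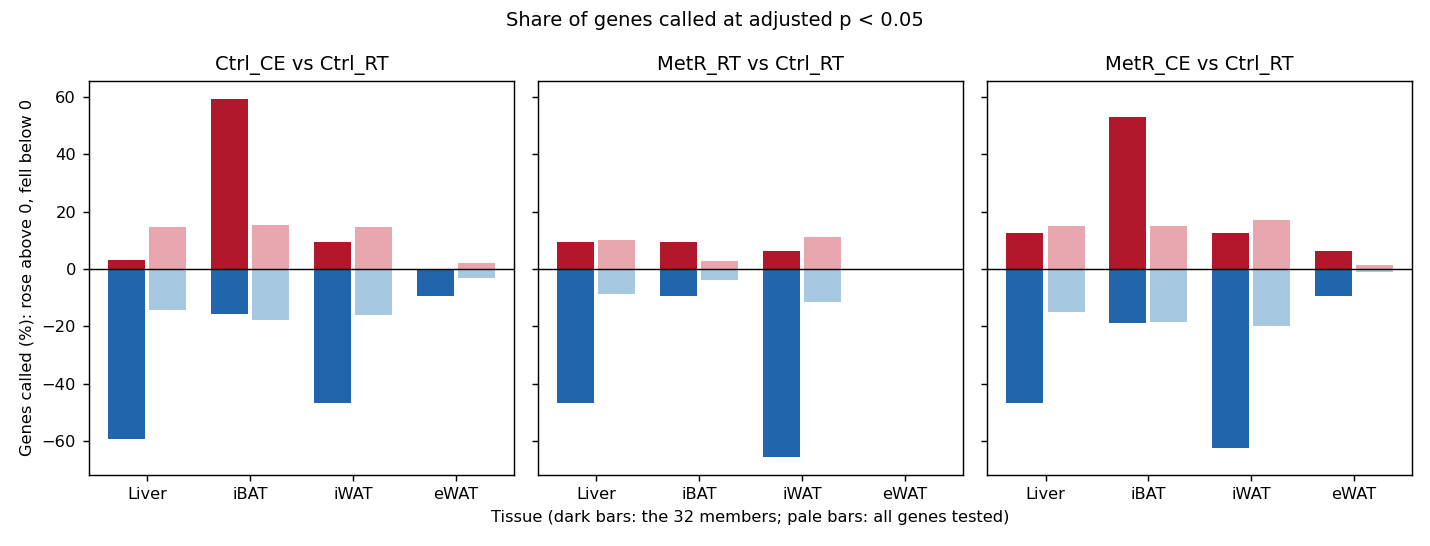
Bars give the share of genes (%) that rose (above 0) or fell (below 0) at an adjusted p under 0.05 against Ctrl_RT by tissue, dark for the 32 genes and pale for all genes tested. The dark bars point down in liver and iWAT (19 and 15 of 32 genes in the cold) and up in cold iBAT (19 of 32), and eWAT has short or no bars.

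Counting also size, 14 genes passed both an adjusted p under 0.05 and 1.5-fold in the liver in the cold (11.9% of all genes) and 7 under restriction (6.91%). The same rule gave 7 (14.7%) and 0 (2.5%) genes in iBAT, 7 (15.9%) and 6 (11.6%) in iWAT, and 0 (2.42%) and 0 (0.115%) in eWAT.

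The tissues were then compared in joint fits, in which the difference between their effects is tested. The comparison of iBAT with liver was added after the data were seen. For cold on the control diet, the effect in iBAT was above that in liver for 20 of the 32 genes and below it for 0, beside 30.6% of all genes in either direction. The differences were +3.27 ± 0.38 for Sdf2l1, +2.28 ± 0.22 for Manf, +1.54 ± 0.16 for Calr and +1.45 ± 0.19 for Hspa5 (log2 ± SE). Of the 32 genes 11 fell in liver and rose in iBAT: Calr, Canx, Creld2, Dnajb11, Dnajc3, Hsp90b1, Hspa5, Manf, Pdia3, Sdf2l1 and Sec61b. No gene of the list did the reverse, and 4 fell in both. Of all genes, 14.2% fell in liver and 15.3% rose in iBAT, and the share that did both was not counted.

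**Figure D5:**
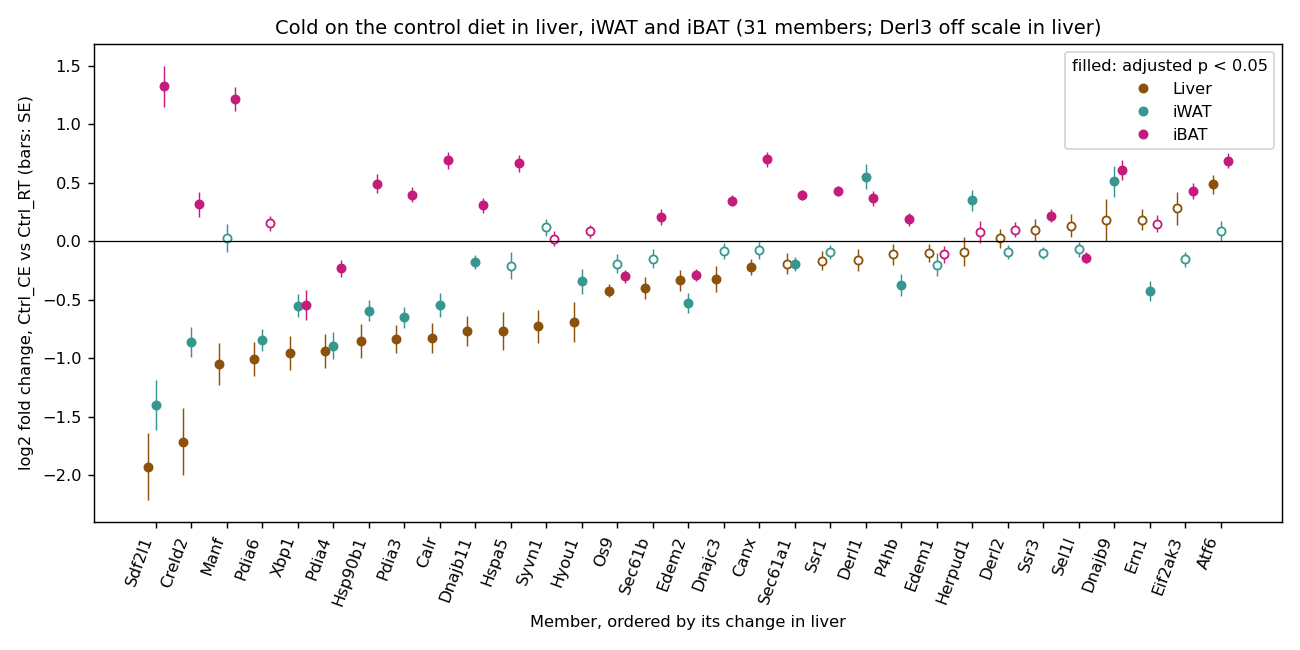
Points give the log2 change in the cold on the control diet with its standard error for 31 genes, ordered by the change in liver, in liver, iWAT and iBAT, filled where the adjusted p is under 0.05; Derl3 is left out because -4.08 in liver is off the scale. At the left, liver and iWAT points lie below 0 and iBAT points above it for Sdf2l1 and Creld2, while Xbp1 is below 0 in all 3.

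Between iWAT and iBAT the cold effect differed for 21 genes, all lower in iWAT, beside 21.7% of all genes. Of the list, 8 genes fell in iWAT and rose in iBAT. Of all genes, 16.2% fell in iWAT and 15.3% rose in iBAT, and the share that did both was not counted. Calr differed by -1.22 ± 0.13, Pdia3 by -1.03 ± 0.11 and Hspa5 by -0.86 ± 0.14, whereas Xbp1 differed by only 0.01 ± 0.16 (adjusted p = 0.985). Between iWAT and liver 11 genes differed beside 30.4% of all genes, 8 higher in iWAT, among them Manf (+1.06 ± 0.22), Syvn1 (+0.83 ± 0.17) and Derl1 (+0.69 ± 0.14), and 3 lower, among them Ern1 (-0.63 ± 0.13). Between iWAT and eWAT 3 genes differed beside 6.71% of all genes: Sdf2l1 (-1.17 ± 0.37), Creld2 (-0.65 ± 0.18) and Derl1 (+0.55 ± 0.16).

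For restriction, iWAT differed from iBAT in 17 genes, all lower in iWAT, beside 11.1% of all genes, with Pdia6 at -0.58 ± 0.11, Pdia3 at -0.53 ± 0.11 and Hspa5 at -0.42 ± 0.14. Liver and iBAT differed in 5 genes beside 11.3% of all genes, among them Manf (+0.76 ± 0.22, higher in iBAT) and Derl2 (-0.46 ± 0.10). With all libraries kept they differed in 10, 9 of them higher in iBAT, beside 2167 of 20267 genes in all. Liver and iWAT differed in 3 beside 20.1% of all genes, namely Ern1 (-0.81 ± 0.13), Derl2 (-0.56 ± 0.11) and Syvn1 (+0.63 ± 0.17, all iWAT minus liver). Between iWAT and eWAT 0 differed by edgeR beside 4.42% of all genes, with an unadjusted p under 0.05 for 11. The share of all genes at that unadjusted p was not counted. Limma with the mouse as a block called 2 (P4hb and Sec61a1), and 1697 of 25354 genes in all. Xbp1 and Edem2 were the genes of the list that fell in all 4 tissues in the cold on the control diet. Xbp1 did so in eWAT only with the 4 libraries left out there. Pdia4 and Os9 fell in 3 tissues, and the share of all genes that fell in 3 or 4 tissues was not counted.

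Set beside the promoters shown above, 9 of the 10 genes with a two-part element before the start fell in liver in the cold, at a median of -0.80, and 8 of the 17 genes with a window and no such element did, at -0.17. In cold iBAT 6 of the 10 rose (median +0.33) and 9 of the 17 (+0.19), and in iWAT under restriction 7 of the 10 fell (-0.50) and 11 of the 17 (-0.31). In restricted liver 6 of the 10 fell (-0.43) and 7 of the 17 (-0.22), and in cold iWAT 5 of the 10 (-0.38) and 8 of the 17 (-0.19). Herpud1, the member with the shorter spacing before the start, rose in iWAT (+0.35 in the cold) and was at -0.09 in cold liver. Of all genes, 14.2% fell in cold liver, 15.3% rose in cold iBAT and 11.5% fell in restricted iWAT. The shares that fell were 8.7% in restricted liver and 16.2% in cold iWAT. Genes outside the list that hold an element were not counted. These are descriptions of 27 genes and carry no test.

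Around the 32 genes, 115 others of the secretory pathway were counted in 8 lists. In liver 40 of the 115 fell and 17 rose in the cold (median -0.09), beside 14.2% and 14.7% of all genes, and 18 fell and 14 rose under restriction (-0.06), beside 8.7% and 10.1%. Of 19 other translocation factors 12 fell in cold liver, with Srp14 of the signal recognition particle at -0.40 and the signal peptidase subunit Sec11a at -0.37. Of 15 other folding factors 8 fell, with the cyclophilin Ppib at -0.69 and Cnpy2 at -0.48, and of 13 other oxidative folding enzymes 7 fell, with Erp29 at -0.61 and Vkorc1 at -0.44. The 13 genes of the COPII export coat went the other way, 6 rising and 0 falling, with Sec23a at +0.59 and Sec24a at +0.41.

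Targets of the PERK branch rose in restricted liver. Of 10 genes 7 rose and 0 fell, at a median of +0.64, beside 10.1% and 8.7% of all genes. Nupr1 (+2.08 ± 0.19) and asparagine synthetase, Asns (+2.00 ± 0.20), led, while 15 of the 32 folding genes fell in the same livers. Such targets are known to respond to ATF4, which lies downstream of the amino acid sensor GCN2 as well as of PERK. In cold liver 2 rose, Ppp1r15b (+0.44) among them, and 1, Ddit3 (-0.46), fell, beside 14.7% and 14.2% of all genes. In iWAT 2 rose and 1 fell in the cold, beside 14.6% and 16.2% of all genes. Under restriction 2 rose and 2 fell there, beside 11% and 11.5%. These counts for the single treatments were near the shares of all genes. With both treatments 8 rose and 1 fell, beside 17.2% and 19.9%. In restricted liver the oxidase Qsox1 fell by 1.68 ± 0.15, Pdia5 by 0.64 ± 0.11 and the oligosaccharyltransferase subunit Rpn2 by 0.33 ± 0.06.

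In cold iBAT 58 of the 115 rose and 12 fell (median +0.22), beside 15.3% and 17.9% of all genes. The rises took in 13 of 16 other degradation genes (Selenos +0.69, Rnf5 +0.55), 10 of 13 COPII genes (Sec31a +0.72, Sec24c +0.64), 10 of 14 glycosylation genes (Magt1 +1.03, Rpn1 +0.60) and 6 of 13 oxidative folding enzymes (Ero1a +0.74, Txndc5 +0.51). Of the PERK branch targets 4 rose and 2 fell, with Atf3 at +2.04 and Nupr1 at -1.46. Under restriction 3 of the 115 rose and 9 fell in iBAT, beside 2.9% and 3.9% of all genes, where Creb3l1 was at -1.01, Wfs1 at -0.50 and Erlin2 at +0.30.

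In iWAT 35 of the 115 fell and 29 rose in the cold, beside 16.2% and 14.6% of all genes, and 39 fell and 10 rose under restriction, beside 11.5% and 11%. Other folding factors fell in 7 and 9 of 15 cases, with Fkbp11 at -1.77 and -1.67, and Creb3l1, a membrane-bound transcription factor of matrix-secreting cells, was at -1.70 and -1.49. The other degradation genes instead rose in 11 of 16 cases in the cold and 4 under restriction, with Ufd1 at +0.74 and +0.35 and Nploc4, its partner on the p97 ATPase, at +0.64 and +0.34. In eWAT 4 rose and 5 fell in the cold, beside 2.11% and 3.16% of all genes, with Atf4 at +0.51 and Crebrf at -0.72.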

How the data were processed

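Poly(A) RNA libraries of 110 samples were sequenced, and the authors deposited 3 tables of raw counts, whole numbers for each gene and library. Per the labels, reads were handled with STAR 2.7.9a, featureCounts 2.0.3, Salmon 1.9.0 and DESeq2 1.46.0 on mm10, and the methods name GENCODE vM25 as annotation. Which counter made the tables is not given in the sources used here, nor is strand, so overlapping genes may share reads. Of 56884 identifiers 51948 were paired with RefSeq symbols. Libraries were grouped by title, and 5 were left out by closest match. Among subsets of the sizes the study states, leaving these out brought mean counts per tissue nearest to the published ones. The median deviation was 0.25% in iBAT and 0.15% in eWAT, against 1.15% and 0.775% for the next subset.

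The counts were tested per tissue with the edgeR 4.0.16 quasi-likelihood test (R 4.3.3, TMM factors, genes with at least 10 counts in total, 4 groups) and adjusted by Benjamini-Hochberg over all genes. A gene was called at an adjusted p under 0.05, and 1.5-fold was a second rule. CPM are normalised by TMM, and errors are standard errors. Effects were compared between tissues in joint fits without a mouse term, and with limma 3.58.1 and the mouse as a block. The interaction is the cold effect on the restricted diet minus that on the control diet. DESeq2 1.42.0, other filters and factors, libraries left out and the replicate number as a block were alternatives. Same-numbered libraries of different groups came from different mice. The median correlation of their deviations in a tissue was -0.005 to 0.109, against -0.021 to 0.006 for other pairs of libraries from different groups. Values given in full are those of Hspa5, Xbp1 and, per tissue, the 2 genes with the largest called change per single treatment and the smallest interaction p, and of other lists the 2 genes of smallest adjusted p were named. The genes and lists were chosen with earlier results of these data known. Counts limit precision for Derl3, with as few as 2 reads. The scripts were tested on simulated data.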

Additional observations from a re-analysis of the deposited data

Results flagged for a closer look

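Of 100 groups of 4 to 7 samples tested with Dixon's criterion, 11 held a sample apart from the rest, where chance gives about 1 in 20. That rate is for independent groups, and these share libraries between genes. In liver, Derl3 was apart in Ctrl_CE replicate 3 (2.63 CPM), Ctrl_RT replicate 7 (53.7 CPM) and MetR_CE replicate 2 (5.55 CPM). Ctrl_RT replicate 7 was also apart for Dnajb11 (280.1 CPM), Calr (2399 CPM) and the sum of the 32 genes (17565 CPM). In iBAT, Ctrl_RT replicate 1 was apart for Sdf2l1 (5.17 CPM), Manf (49.8 CPM) and the sum of the 32 genes (3393 CPM), and MetR_RT replicate 3 for Xbp1 (58.2 CPM). In eWAT, MetR_CE replicate 5 was apart for Creld2 (23.8 CPM). Each of these was the highest sample of its group.

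The effect of cold differed between the diets, by the test of the interaction itself, for 16 gene and tissue pairs, all with a positive log2 difference. In liver these were Derl3 (3.20), Sdf2l1 (1.91), Creld2 (1.69), Manf (1.08), Pdia6 (0.94), Pdia4 (0.90), Dnajb11 (0.90), Calr (0.89), Hsp90b1 (0.84), Pdia3 (0.83) and Os9 (0.30). In iWAT they were Pdia4 (0.81), Xbp1 (0.59), Hsp90b1 (0.56) and Pdia3 (0.51), and in eWAT Xbp1 (0.45). Among all genes the test passed for 1.76% (liver), 2.95% (iWAT), 3.07% (eWAT) and 0.903% (iBAT, 0 of the 32). The eWAT count, 1 of 32, was near the share of all genes. Leaving out 1 library removed Derl3 and Os9 (liver Ctrl_RT replicate 7), Pdia3 (iWAT MetR_RT replicate 6) or Xbp1 (eWAT MetR_RT replicate 2). Without iBAT Ctrl_RT replicate 1, Calr and Manf (-0.60) were added.

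The effect of a treatment differed between tissues for up to 21 of the 32 genes. For cold on the control diet it differed for 21 genes between iWAT and iBAT (21.7% of all genes), 20 between iBAT and liver (30.6%), 11 between iWAT and liver (30.4%) and 3 between iWAT and eWAT (6.71%). For restriction it differed for 17 genes between iWAT and iBAT (11.1% of all genes), 5 between iBAT and liver (11.3%) and 3 between iWAT and liver (20.1%).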

How the results depend on the processing

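Of 250 counts of called genes recomputed under an alternative, 188 stayed within 1.5 times the main count and 62 did not, 19 of these under the 1.5-fold rule. Among 7232 recomputed gene results 6940 kept their side of the threshold, and no gene called under either setting changed direction.

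With at least 1.5-fold required, liver held 7 genes for restriction, 8 for both treatments, 0 for cold on the restricted diet and 0 for diet in the cold. In iBAT these were 0, 6, 3 and 1, with 7 for cold on the control diet. In iWAT they were 6, 9, 0 and 0, with 7 for cold and 2 for the interaction, and in eWAT both treatments gave 1 and cold, diet in the cold and the interaction 0 each. DESeq2 gave 8 genes for diet in the cold and 17 for the interaction in liver, and 2 for the interaction in iBAT. In iWAT it gave 5, 5 and 10 for diet in the cold, cold on the restricted diet and the interaction. In eWAT these were 16, 1 and 2. DESeq2 also called more of all genes, for the liver interaction 880 of 22143 against 389 and for the iWAT interaction 2047 of 26428 against 780. The filterByExpr filter gave 9 for diet in the cold in liver, 2 for the interaction in iBAT and 4 and 8 for diet in the cold and the interaction in iWAT. Over all genes these were 2993 of 13748, 446 of 15183, and 1258 and 1412 of 16469. RLE factors gave 4 for diet in the cold in iWAT and 0 for the interaction in eWAT. No filter gave 6 for diet in the cold and 0 for the interaction in eWAT.

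Fitting only the groups compared gave 9 and 5 for diet in the cold in liver and iWAT, 3 for restriction in iBAT and 1 for cold in eWAT. Over all genes these were 2724 of 19782, 1190 of 23266, 1574 of 21884 and 638 of 24679. All libraries kept gave 12 for both treatments, 3 for diet in the cold and 0 for the interaction in eWAT, 1 for cold between iWAT and eWAT, and 10 for restriction between iBAT and liver. The limma fit with the mouse as a block gave 6 and 2 genes for restriction between iWAT and liver or eWAT. In iBAT, groups set by tag gave 0 for diet in the cold and 12 for cold on the restricted diet, and leaving those 3 libraries out gave 4 for diet in the cold. The cause of these shifts was not tested.

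Leaving out single eWAT libraries gave 2 to 5 genes for both treatments and 0 to 1 for the interaction. Without iBAT Ctrl_RT replicate 1, which was chosen after the data were seen, as were the other single libraries of liver, iBAT and iWAT and MetR_RT replicate 2 of eWAT, 14 genes passed for diet in the cold and 2 for the interaction. Same-numbered libraries correlated at -0.20 to 0.22 in liver, -0.60 to 0.59 in iBAT, -0.42 to 0.61 in iWAT and -0.59 to 0.70 in eWAT. They came from different mice, so the numbers do not pair the samples by animal. With the replicate block, diet in the cold gave 3 genes in liver and 1 in iWAT, both treatments 3 in eWAT, and the other 21 counts stayed within 1.5 times.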
